A study of Mus musculus with 11 samples.

Results

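Accessible chromatin was described at 10 genes of the VEGF and related angiogenic pathways: the ligands Vegfa, Vegfb, Vegfc and Pgf, the receptors Kdr and Flt1, the angiopoietins Angpt1 and Angpt2, and the secreted factors Angptl4 and Adm. A region counted for a gene when it overlapped the span from 50 kb upstream of the gene to 20 kb past its end, with genes taken from GENCODE vM21. This rule uses gene position and not the measured level. It found 121 of the 94963 regions in the deposited list, and no region was shared between the windows of different genes. The 10 genes were set beside 21755 protein-coding genes of the annotation.

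The list came from ATAC-seq, in which a transposase cuts and tags open chromatin, in 11 cultures of MPC2 cells. MPC2 is a mouse mesenchymal progenitor line derived as 1 clone and immortalised conditionally, so that the cells divide at a lower temperature and turn to osteogenic differentiation at a higher one. The groups were undifferentiated cells (MSC) given DMSO vehicle (3 cultures), MSC given 50 uM FG-4592 (3 cultures), cells differentiated for 3 weeks (osteocyte) given vehicle (2 cultures) and osteocytes given 50 uM FG-4592 (3 cultures), each for 48 h. FG-4592 (Roxadustat) inhibits the HIF prolyl hydroxylases, and the question was how this hypoxia mimetic changes chromatin in the 2 cell stages. All 4 groups share the line and its conditional immortalisation, and osteocytes had also been kept in medium with beta-glycerophosphate and ascorbic acid.

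Each region had 1 value over all 11 cultures, read from the values themselves as the average log2 CPM (log2 of the cuts scaled to library size, called the level here). The effect of FG-4592, the difference between stages and the replicate error at these genes could therefore not be measured, and no test between groups was made. A low level in such an average cannot be told apart from a high level in a few cultures or cells only. The depth of the cultures was unknown. Wider regions collect more cuts, so for start regions and other regions of interest a percentile at equal width is added, taken among listed regions whose width differed by at most 10% and which were of the same class (within 1000 bp of any annotated transcript start, or not).

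VEGF-A, VEGF-B, VEGF-C and placental growth factor (Pgf) are secreted ligands of tyrosine kinase receptors on endothelial cells. VEGF-A acts through VEGFR2 (Kdr) and binds VEGFR1 (Flt1), which is also the receptor of VEGF-B and placental growth factor, whereas VEGF-C acts mainly on lymphatic endothelium. In bone, VEGF from osteoblast-lineage cells couples vessel growth to bone formation. Vegfa, Angptl4 and Adm are textbook targets of the hypoxia-inducible factors (HIF), which bind hypoxia response elements (HRE) around a core of ACGTG or GCGTG.

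The following sequences were chosen, after their matches were seen, from regions whose HRE cores the results mention and from starts where the list held a weak region or none, and they are not every cluster of cores at these genes. The Vegfa piece is shown for its place just outside the start region. They were read from the RefSeq copy of GRCm38.p6 (the assembly of mm10), each on the strand of its gene and from 5′ to 3′. Capitals mark HRE cores (ACGTG or GCGTG on either strand) and AP-1 sites (TGACTCA). The pieces are from upstream of Vegfa (chr17:46033284-46033312), the upstream side of the Angptl4 start region (chr17:33781911-33781997), the upstream region of Pgf (chr12:85186415-85186669), the region past the end of Adm (chr7:110630357-110630638), the first intron of Angpt2 (chr8:18726529-18726768), upstream of Flt1 (chr5:147758261-147758504) and the Kdr start region (chr5:75978112-75978140). The last pair are the RefSeq promoter entries of Adm (chr7:110627407-110627656) and Kdr (chr5:75978456-75978705), the 250 bases before the start.
Vegfa upstream core: tacacagtgcatACGTGggtttccacagg
Angptl4 start: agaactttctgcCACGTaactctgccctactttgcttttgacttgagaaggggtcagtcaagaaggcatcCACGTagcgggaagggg
Pgf upstream: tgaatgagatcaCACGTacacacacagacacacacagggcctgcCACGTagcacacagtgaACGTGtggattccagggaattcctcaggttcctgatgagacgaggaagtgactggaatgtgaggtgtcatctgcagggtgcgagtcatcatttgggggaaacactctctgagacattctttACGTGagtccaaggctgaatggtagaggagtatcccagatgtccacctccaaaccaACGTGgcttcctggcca
Adm past the gene end: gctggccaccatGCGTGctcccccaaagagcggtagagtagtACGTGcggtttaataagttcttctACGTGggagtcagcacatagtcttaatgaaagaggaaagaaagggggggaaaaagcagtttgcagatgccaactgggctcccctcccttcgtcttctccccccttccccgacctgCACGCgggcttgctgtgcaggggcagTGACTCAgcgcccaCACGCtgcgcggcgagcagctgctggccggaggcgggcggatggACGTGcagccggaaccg
Angpt2 intron: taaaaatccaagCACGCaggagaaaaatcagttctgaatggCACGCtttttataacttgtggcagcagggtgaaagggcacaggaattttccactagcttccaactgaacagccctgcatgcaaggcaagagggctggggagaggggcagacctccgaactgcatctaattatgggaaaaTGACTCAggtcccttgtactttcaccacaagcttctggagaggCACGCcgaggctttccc
Flt1 upstream: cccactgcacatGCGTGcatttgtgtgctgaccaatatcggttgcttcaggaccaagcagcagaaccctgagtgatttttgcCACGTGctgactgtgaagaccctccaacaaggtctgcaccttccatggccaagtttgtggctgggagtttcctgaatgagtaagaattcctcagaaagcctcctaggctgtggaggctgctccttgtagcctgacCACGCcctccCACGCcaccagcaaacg
Kdr start: ctctgtggttctGCGTGgagacccgagcc
Adm promoter: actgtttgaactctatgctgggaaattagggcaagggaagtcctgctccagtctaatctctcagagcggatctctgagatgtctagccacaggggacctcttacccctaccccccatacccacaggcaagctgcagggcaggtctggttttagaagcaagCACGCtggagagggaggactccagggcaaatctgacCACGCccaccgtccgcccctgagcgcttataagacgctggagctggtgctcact
Kdr promoter: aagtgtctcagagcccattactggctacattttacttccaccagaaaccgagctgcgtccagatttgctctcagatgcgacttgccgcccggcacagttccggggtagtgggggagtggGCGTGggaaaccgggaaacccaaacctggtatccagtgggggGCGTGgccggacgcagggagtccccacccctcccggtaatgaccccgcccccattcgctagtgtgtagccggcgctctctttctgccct

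The receptors had the fewest regions as a group. The 4 VEGF ligands had 45 regions, the angiopoietins 45, Angptl4 and Adm 21, and the 2 receptors 10. Each gene was ranked among coding genes up to 20% longer or shorter, between 428 and 2366 genes, and the percentile gives the share of these with fewer regions, ties split evenly. Pgf (17 regions, 99.0th percentile, median of similar genes 6), Angptl4 (14 regions, 96.2, median 5) and Angpt2 (17 regions, 94.4, median 7) ranked highest. They were followed by Vegfb (10 regions, 86.8, median 4), Angpt1 (28 regions, 83.4, median 14) and Vegfa (11 regions, 83.4, median 6). Adm had 7 regions against a median of 5 (63.7). The remaining 3 genes were below the median of their similar genes, with 8 regions at Flt1 (35.5, median 11), 7 at Vegfc (34.4, median 10) and 2 at Kdr (13.2, median 7). Several ranks moved with the setting. Vegfb stood at 53.5 without starts of other coding genes and at 64.9 among genes with a similar number of other coding genes in their window. Adm ran from 24.6 with gene bodies and 1 kb upstream only to 89.7 with 20 kb upstream, and Vegfc from 22.7 by summed CPM to 52.6 with gene bodies and 1 kb upstream only. Kdr ran from 5.93 with regions at least 500 bp wide to 24.2 among genes with a similar number of other coding genes, and Flt1 from 16.7 with regions at least 500 bp wide to 38.9 with that same restriction on neighbours. By summed CPM the highest rank was Vegfb with 98.8, while Angptl4 had 96.2, Pgf 88.8 and Angpt2 73.1. At Vegfb, 164 of the 362 CPM lay at the start of Fkbp2, a neighbouring gene. The median of the 10 percentiles was 83.4. The percentiles describe this list and carry no p-value.

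**Figure D1:**
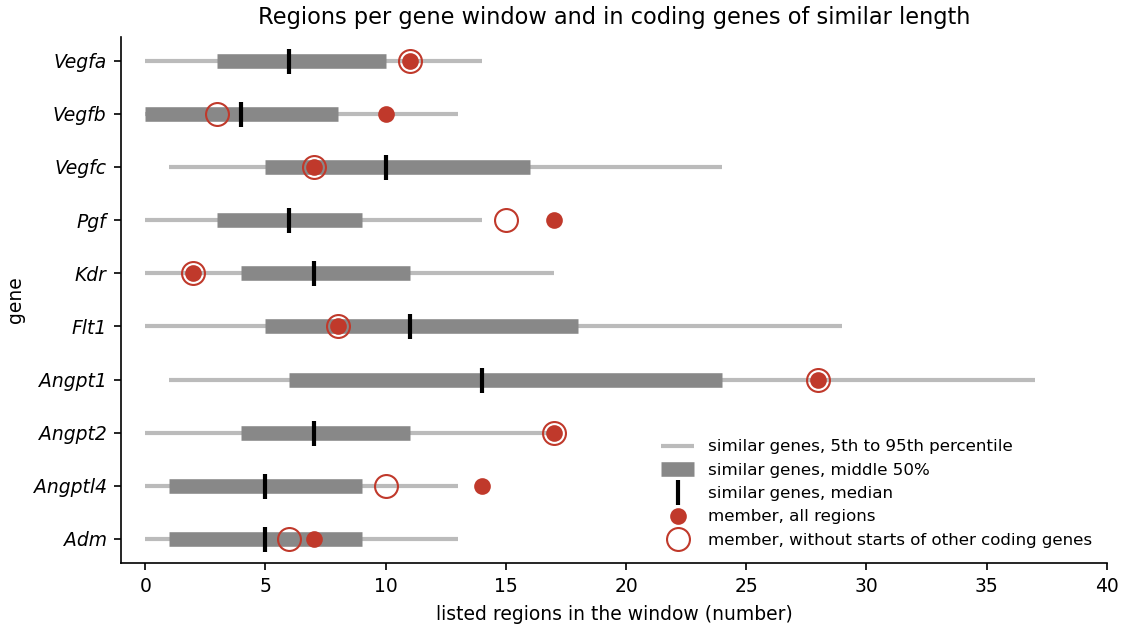
Number of listed regions in the window of each gene (x axis) for 10 angiogenic factor genes (y axis); filled points count all regions, open circles leave out regions at starts of other coding genes, and grey bars give the 5th to 95th percentile and the middle 50% of coding genes of similar length with their median. Pgf with 17 and Angptl4 with 14 regions lie past the 95th percentile of 14 and 13, Kdr with 2 lies below the middle 50%, and Vegfb moves from 10 to 3 without the starts of its neighbours.

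The 121 regions had a median level of 2.32 and a median width of 473 bp, beside 2.12 and 460 bp over the whole list. By position, 45 were centred upstream of their gene, 55 in the gene body and 21 past its end. By kind, 16 lay within 1000 bp of a transcript start of the gene itself, with a median level of 3.55. Another 14 lay at the start of a different coding gene (median 5.03), 3 at the start of a noncoding gene, and 88 were distal (median 1.91). Over the whole list the median was 3.89 within 1000 bp of a transcript start and 1.89 elsewhere. At equal width and class, the 121 regions had a median percentile of 51.0.

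**Figure D2:**
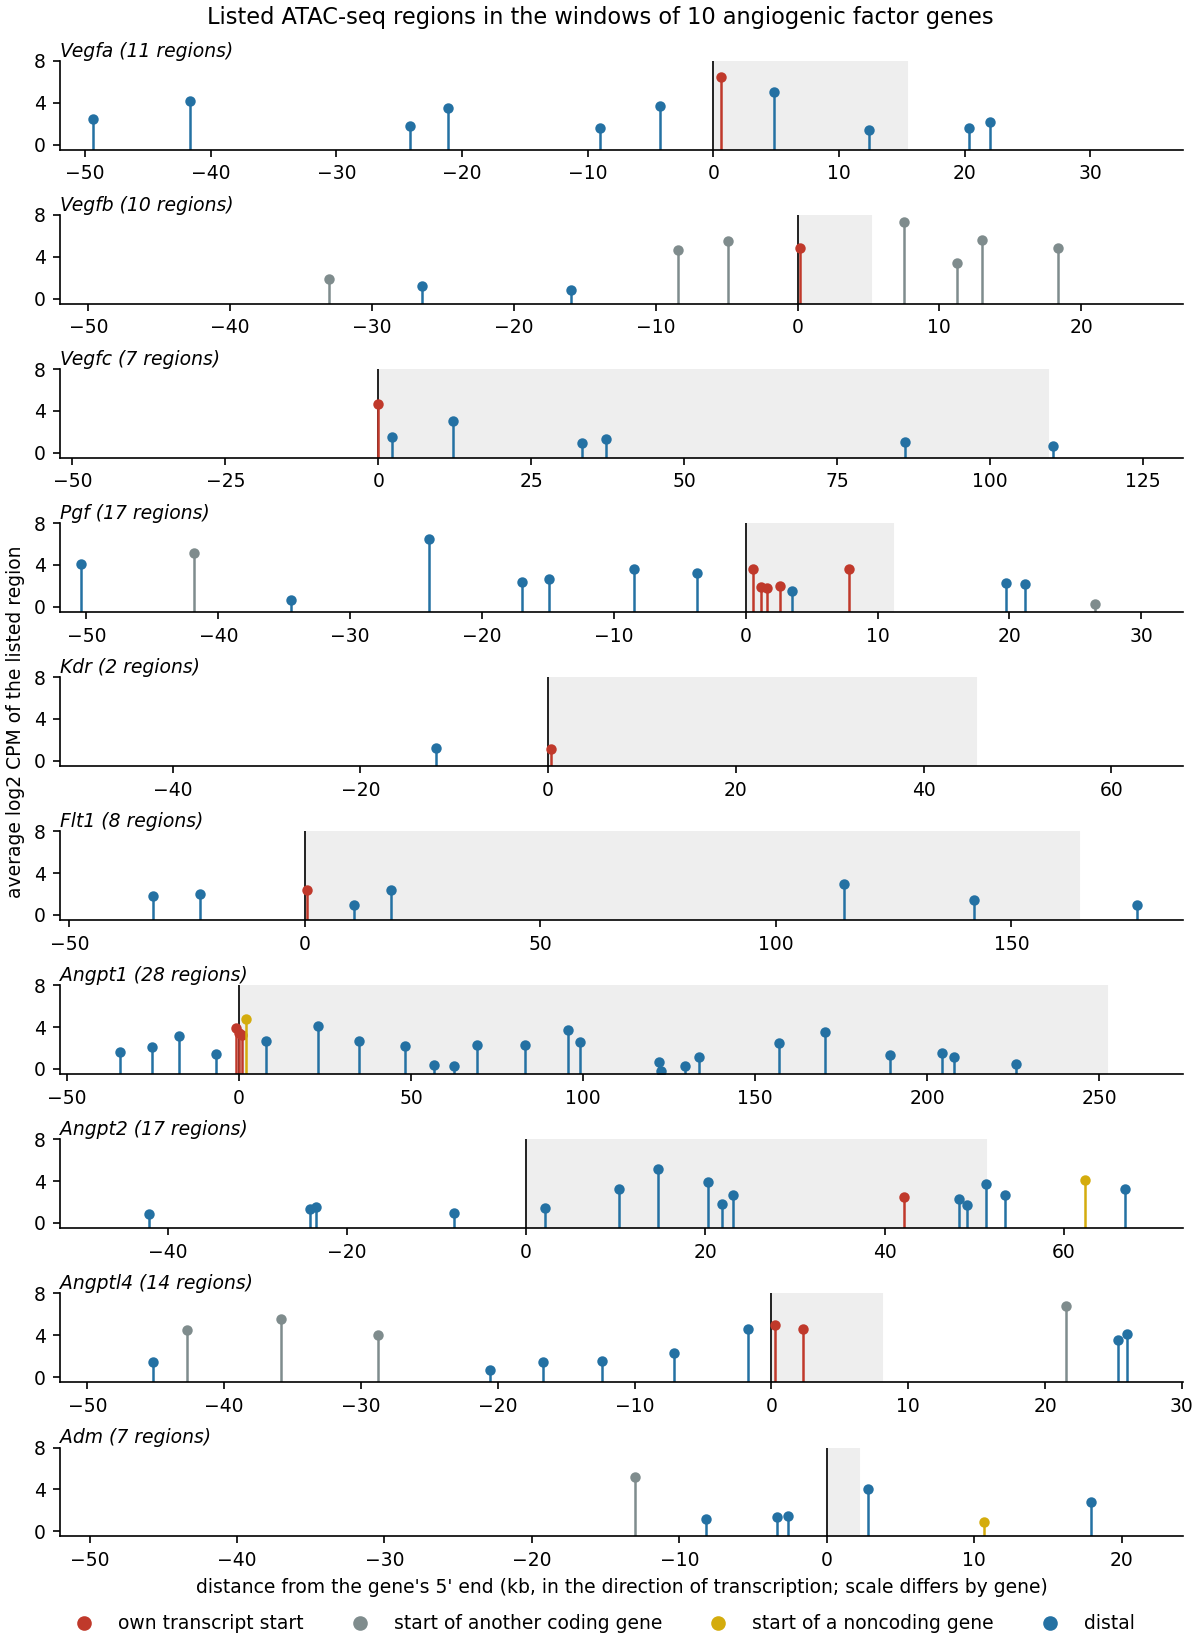
Listed regions by the distance of their centre from the 5′ end of the gene (x axis, kb, in the direction of transcription, with its own scale for each gene) and their average log2 CPM (y axis); the grey band is the gene body and the colours give the kind of region. The highest points at Vegfb and Adm are starts of neighbouring genes, the highest at Pgf is a distal region, and Kdr has 2 low points.

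**Figure D3:**
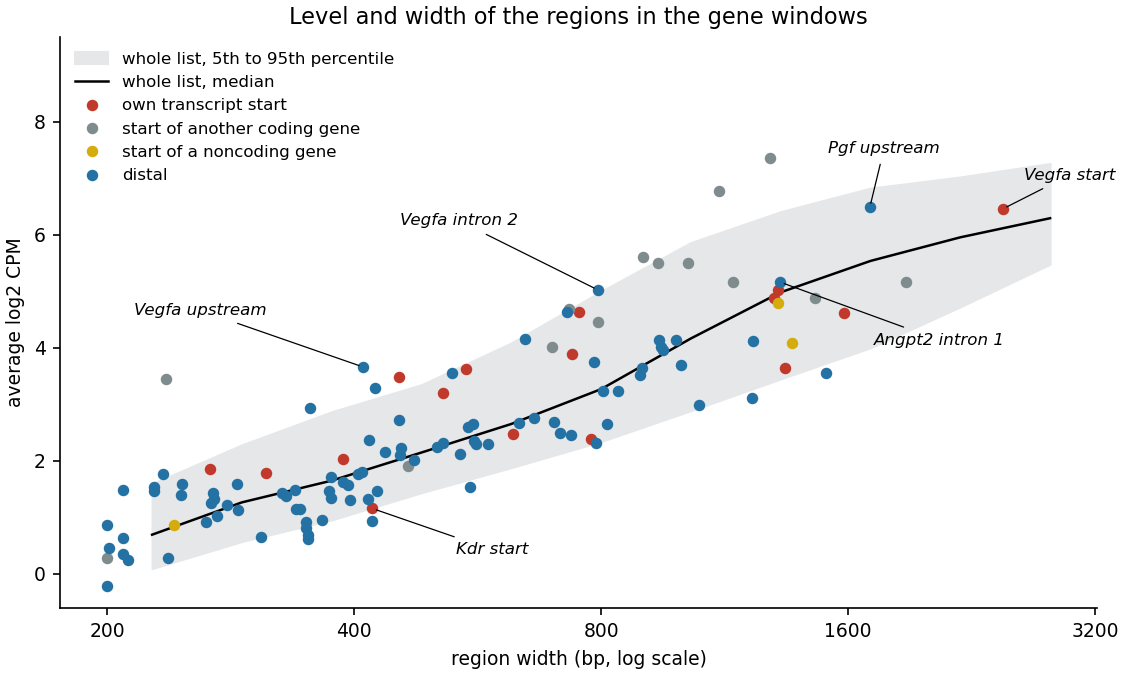
Average log2 CPM (y axis) against width (x axis, bp, log scale) of the 121 regions, coloured by kind, over the median and the 5th to 95th percentile of the whole list by width. The Kdr start lies near the lower edge of the band and the Vegfa regions in intron 2 and 4.25 kb upstream above its upper edge.

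Of the 10 genes, 9 had a region within 1000 bp of at least 1 of their own transcript starts, beside 64.6% of all coding genes. All 5 genes with a CpG-rich start (GC content of at least 55% and observed over expected CpG of at least 0.6 within 500 bp of the 5′ end: Vegfa, Vegfb, Vegfc, Kdr and Flt1) had one, beside 91.8% of CpG-rich coding genes. Of the other 5, Pgf, Angpt1, Angpt2 and Angptl4 had one, beside 47.5% of coding genes of that class. The highest own region of these 9 genes had a median level of 3.89, beside 5.04 over all coding genes with a start region, 5.40 over CpG-rich ones and 4.35 over the others. Among coding genes of the same CpG class, Vegfa (89.9th percentile) and Angptl4 (67.6) were above the median. The other 7 were below it, from Angpt1 at 40.2 and Pgf at 36.3 through Vegfb at 30.0, Vegfc at 23.4 and Angpt2 at 21.7 to Flt1 at 5.34 and Kdr at 1.57. These ranks are among genes and take no account of width. A second ranking set the same regions beside all listed regions within 1000 bp of any transcript start and of similar width, whatever their CpG content. There they stood at 69.9 for Vegfa, 65.2 for Angpt1, 36.8 for Angptl4, 31.4 for Vegfb, 30.5 for Angpt2, 10.8 for Vegfc, 3.49 for Flt1, 2.58 for Kdr and 2.34 for Pgf. Only the own region with the highest level entered for each gene, whatever its width. The other own regions of Pgf, Angptl4 and Angpt1 stood higher at their widths. They had 65.4 to 88.2 at Pgf, with 88.2 at its 5′ end, 84.7 at Angptl4, and 84.9 and 94.0 at Angpt1. Angpt1 and Angptl4 were on opposite sides of the median in the 2 rankings, which differ in more than width, and the cause was not tested.

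**Figure D4:**
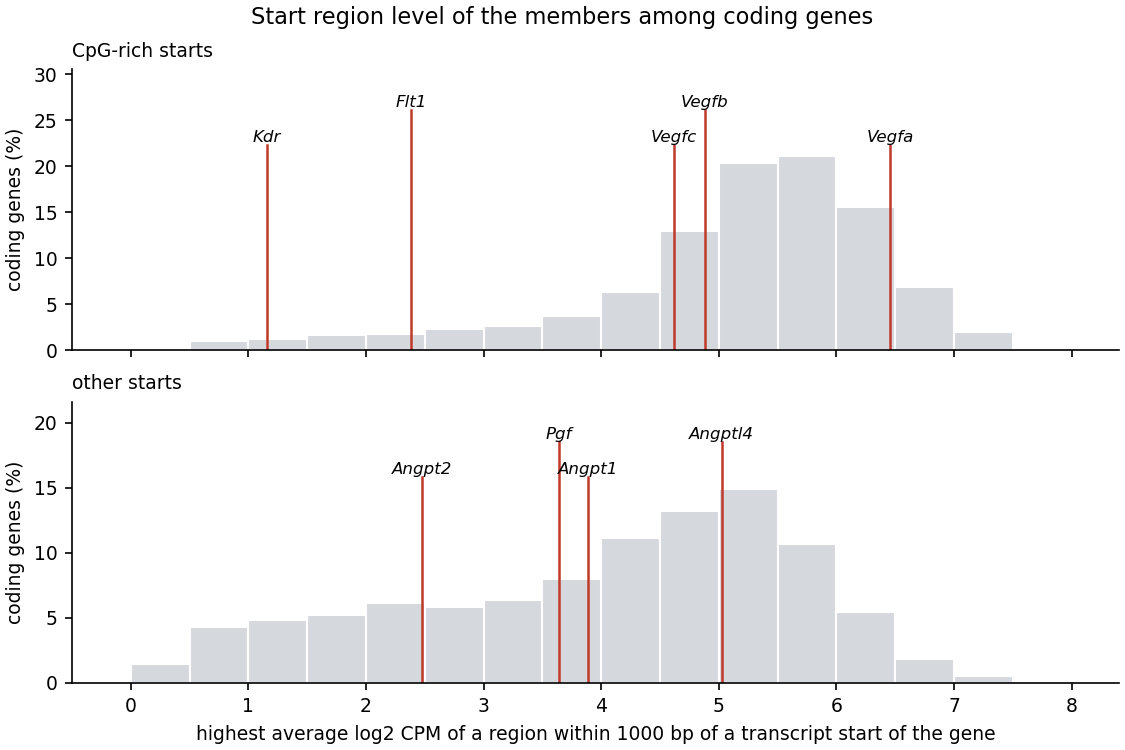
Share of coding genes (y axis, %) by the average log2 CPM of their highest region within 1000 bp of a transcript start (x axis), for CpG-rich and other starts; red lines mark the members. Vegfa at 6.46 lies in the upper part of the CpG-rich genes and Kdr at 1.16 and Flt1 at 2.38 in the lower tail.

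Vegfa (ENSMUSG00000023951.17, chr17:46016993-46032369, minus strand) encodes the main growth factor of blood vessels. Its start region (chr17:46030553-46033024) covered exon 1 and part of intron 1 and was 2472 bp wide, the widest of the 121, at a level of 6.46. That was the 99.1th percentile of the whole list but the 69.9th among the 176 promoter regions of similar width. The region held 11 HRE cores and no AP-1 site. The core shown above lies 927 bp upstream of the 5′ end and 272 bp past the outer end of this region, outside any listed region. As background, a core upstream of the start is the hypoxia response element for which VEGFA is known. Within 1500 bp upstream of the start, 6 HRE cores were found, of which 4 were inside the region, and this was the 1 of the 6 that read ACGTG.

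Away from its start, Vegfa had 10 distal regions and none at another coding gene. Intron 2 held a region at 5.02 (chr17:46027183-46027975, 793 bp), the 98.2th percentile at its width. A region 4.25 kb upstream (chr17:46036416-46036825, 410 bp) had a level of 3.66, the 99.0th percentile at its width, with 1 HRE core and 1 AP-1 site. Both stood higher than nearly all regions as wide. The region 41.7 kb upstream (chr17:46073552-46074538) had 4.13, and the other 7 ranged from 1.40 in intron 7 to 3.51 at 21.1 kb upstream.

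Vegfb (ENSMUSG00000024962.13, chr19:6982473-6987651, minus strand) encodes a ligand of Flt1. Its start region (chr19:6986815-6988112, 1298 bp) had a level of 4.88, the 31.4th percentile at its width, with 5 HRE cores and 1 AP-1 site. The region also overlapped the neighbouring gene Dnajc4. The window covers 8 other coding genes, and 7 of its 10 regions were at their starts. They include the highest of all 121, at 7.36 at the start of Fkbp2 (chr19:6979494-6980777), followed by 5.61 at the starts of Plcb3 and Ppp1r14b (chr19:6974179-6975078). The other 5 ranged from 1.91 to 5.49. Without those 7, Vegfb kept 3 regions, its own start and a pair upstream at 1.22 and 0.86.

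Vegfc (ENSMUSG00000031520.6, chr8:54077606-54187096, plus strand) encodes the growth factor of lymphatic vessels. Its start region (chr8:54076762-54078345, 1584 bp) had a level of 4.62, the 10.8th percentile at its width, with 6 HRE cores. The next 2 regions were both in intron 1, at 2.98 (chr8:54089311-54090364) and 1.47 (chr8:54079665-54079892). The other 4 ranged from 0.61 to 1.35, and the start region held 24.6 of the 43.3 CPM summed over this window.

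Pgf (ENSMUSG00000004791.7, chr12:85166635-85177790, minus strand) encodes placental growth factor. It had 5 regions at its own starts. At the 5′ end, the region over exon 1 (chr12:85176969-85177515, 547 bp) had a level of 3.62, the 88.2th percentile at its width. An internal start across introns 4 to 6 (chr12:85169285-85170623, 1339 bp) had 3.64, the 2.34th percentile at its width. Those in introns 1 and 2 had 1.78 (chr12:85176021-85176332), 1.85 (chr12:85176527-85176793) and 2.03 (chr12:85175013-85175400), the 72.0th, 84.5th and 65.4th percentiles at their widths. At equal width, 4 of the 5 were thus above the median.

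The highest region at Pgf lay 24.0 kb upstream (chr12:85200929-85202629, 1701 bp), at a level of 6.48. It was not within 1000 bp of any annotated start and ranked at the 98.8th percentile of the 497 such regions of similar width. The 5.17 at 41.9 kb upstream belonged to the start of Eif2b2 (chr12:85219064-85220221). The region 8.50 kb upstream (chr12:85185845-85186741, 897 bp) had 3.64 and held 6 HRE cores, the 99.7th percentile among regions as wide. Of the other 9 regions, the highest was 4.12 at 50.4 kb upstream (chr12:85227571-85228796) and the lowest 0.28. In the Pgf sequence above, all 5 of its cores read ACGTG on one strand or the other.

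Kdr (ENSMUSG00000062960.10, chr5:75932827-75978458, minus strand) encodes VEGFR2, the main signalling receptor of VEGF-A. Its window of 116 kb held 2 regions and a summed 4.61 CPM, the 9.63th percentile of similar genes. The start region (chr5:75977988-75978408) was 421 bp wide at a level of 1.16, the 2.58th percentile among promoter regions of that width. It lay 50 bp inside the transcript start and held the 1 HRE core shown. The other region, 12.0 kb upstream (chr5:75990313-75990580, 268 bp), had 1.25 and an AP-1 site.

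Flt1 (ENSMUSG00000029648.13, chr5:147561604-147726011, minus strand) encodes VEGFR1, which binds VEGF-A tightly and signals weakly. Its start region (chr5:147725189-147725965, 777 bp) had a level of 2.38, the 3.49th percentile at its width. Intron 15 held the highest region of the window, 2.93 (chr5:147611338-147611690, 353 bp), which ranked at the 97.4th percentile at its width, and a region in intron 1 (chr5:147707441-147707857) had 2.36. The remaining 5 ranged from 0.92 to 2.01. A region 32.3 kb upstream (chr5:147758111-147758514) had only 1.76 but held 4 HRE cores in 404 bp, the 99.7th percentile at its width.

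Angpt1 (ENSMUSG00000022309.9, chr15:42424723-42676977, minus strand) encodes the activating ligand of the receptor Tie2 (Tek). It is the longest of the 10 genes, at 252 kb, with 23 of its 28 regions in the gene body. Around its 5′ end lay 3 regions, at 3.89 upstream (chr15:42677356-42678093), 3.47 over exon 1 (chr15:42676694-42677147) and 3.20 over exon 1 and intron 1 (chr15:42675998-42676510), the 65.2th, 94.0th and 84.9th percentiles at their widths. The highest, 4.80 (chr15:42674164-42675477), was 2.16 kb into the gene at a start of the noncoding gene Gm17473 and held 3 HRE cores and 2 AP-1 sites. The second highest of the 28, also in intron 1, had 4.14 (chr15:42653538-42654479). The other 23 ranged from -0.21 to 3.75. Of the 28 regions, 6 held an HRE core (21.4%), beside 44.7% on average among listed regions of the same width and class. Base composition was not matched. The same pair of shares was 63.6% and 46.2% at Vegfa, 70% and 65.4% at Vegfb, and 57.1% and 43.4% at Vegfc. It was 58.8% and 53.3% at Pgf, 50% and 35.5% at Kdr, and 37.5% and 39.0% at Flt1. For Angpt2 it was 41.2% and 46.1%, for Angptl4 57.1% and 56.1%, and for Adm 42.9% and 46.1%.

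Angpt2 (ENSMUSG00000031465.6, chr8:18690263-18741562, minus strand) encodes a context-dependent antagonist of Tie2 and lies within the gene Mcph1, so its regions may belong to either. No region was listed within 1000 bp of its main 5′ end. The own-start region was at an internal start over intron 5 and exon 6 (chr8:18699086-18699709, 624 bp), at 2.48, the 30.5th percentile at its width. The highest region was in intron 1 (chr8:18726225-18727547, 1323 bp), 14.7 kb into the gene, with a level of 5.16, the 84.3th percentile at its width. It held 4 HRE cores and 3 AP-1 sites, counts at the 93.1th and 98.7th percentiles at its width, and the stretch shown above carries 3 of the cores and 1 of the AP-1 sites. The next was 4.08, past the gene end at a start of the noncoding gene Gm16725 (chr8:18678499-18679867). The other 14 ranged from 0.82 to 3.95.

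Angptl4 (ENSMUSG00000002289.16, chr17:33773750-33781830, minus strand) encodes an inhibitor of lipoprotein lipase. Its start region (chr17:33780903-33782216, 1314 bp) had a level of 5.02, the 36.8th percentile at its width, and 6 HRE cores, and the pair shown lies just upstream of the 5′ end, both reading ACGTG on the reverse strand. A second start in intron 3 (chr17:33779179-33779930, 752 bp) had 4.64, the 84.7th percentile at its width, and no HRE core. A region 1.75 kb upstream (chr17:33783213-33783938, 726 bp) had 4.63, the 97.4th percentile at its width. The 2 highest levels of the window belonged to neighbours, 6.76 at Rab11b (chr17:33759709-33760821) and 5.51 at Kank3 (chr17:33817168-33818187), and 4 of the 14 regions were at such starts. The 8 distal regions ranged from 0.63 to 4.63.

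Adm (ENSMUSG00000030790.15, chr7:110627661-110629820, plus strand) encodes adrenomedullin, a vasodilator peptide. The copy of the list used here held no region within 1000 bp of its starts and none in the gene body, which does not show that none was measured there. The region nearest by its edge, 1945 bp from an annotated start of the gene, lay just beyond the gene end (chr7:110629973-110630918, 946 bp), at a level of 4.01. It held 7 HRE cores, the 99.8th percentile at its width, and 1 AP-1 site. The stretch shown above holds 6 of those cores and the AP-1 site. The highest level of the window, 5.17, was at the start of Sbf2 (chr7:110613731-110615611), 13.0 kb upstream. The other 5 ranged from 0.86 to 2.75. The RefSeq promoter table held 9 entries for 7 of the 10 genes, of which 6 had at least 1 HRE core, beside 38.6% of its 32851 entries. Those of Adm, Kdr and Vegfb and 1 of the 2 of Vegfa had 2 cores, Flt1 and 1 of the 2 of Pgf had 1, and the entry of Vegfc and the other ones of Vegfa and Pgf had 0.

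HRE cores were about as frequent in the 121 regions as in the list. They were found in 56 regions (46.3%, 95% Wilson interval 37.6 to 55.1), beside 46.2% of all listed regions and 48.8% at equal width and class. The 56 regions held 152 cores, and 136 would be the number at equal width and class. The 14 regions at other coding starts held 55 of them (36.1 at equal width and class), own starts 39 (37.1) and regions not at a coding start 58 (62.8). By gene, 33 were in the Vegfb window, 28 at Angptl4, 20 at Pgf, 18 at Vegfa, 16 at Adm, 11 at Angpt2, 10 at Vegfc, 8 at Angpt1, 7 at Flt1 and 1 at Kdr. Starts of other coding genes held 28 of the 33 at Vegfb, 19 of the 28 at Angptl4, 7 of the 16 at Adm and 1 of the 20 at Pgf, so this order does not rank the genes' own regions. Those that contained ACGTG numbered 49, with 9 each at Pgf and Angptl4, counts that include starts of other coding genes. By region, ACGTG was in 24.8%, beside 27.1% of the list. At own starts 12 of 16 regions held a core (75%, 50.5 to 89.8, beside 68.9% at equal width and class), at other coding starts 12 of 14 (85.7%, 60.1 to 96.0, beside 76.0%), and among the 91 not at a coding start 32 did (35.2%, 26.1 to 45.4, beside 41.0%).

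The other motifs were also close to the list in frequency. AP-1 sites (TGACTCA) were in 26 regions (21.5%, 15.1 to 29.6), beside 22.1% of the list and 22.5% at equal width and class. Of these 26, 7 were at Angpt1, which held 28 of the 121 regions. RUNX sites (TGTGGTT on either strand), bound by the master regulator of osteoblasts, were in 21 regions (17.4%, 11.6 to 25.1), beside 18.1% and 18.5%. TEAD sites (ACATTCC on either strand) were in 11 regions (9.09%, 5.15 to 15.5), beside 11% and 11.4%. Each value at equal width and class lay within the interval, which covers counting error only. A match describes the letters and does not show that a factor binds there.

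**Figure D5:**
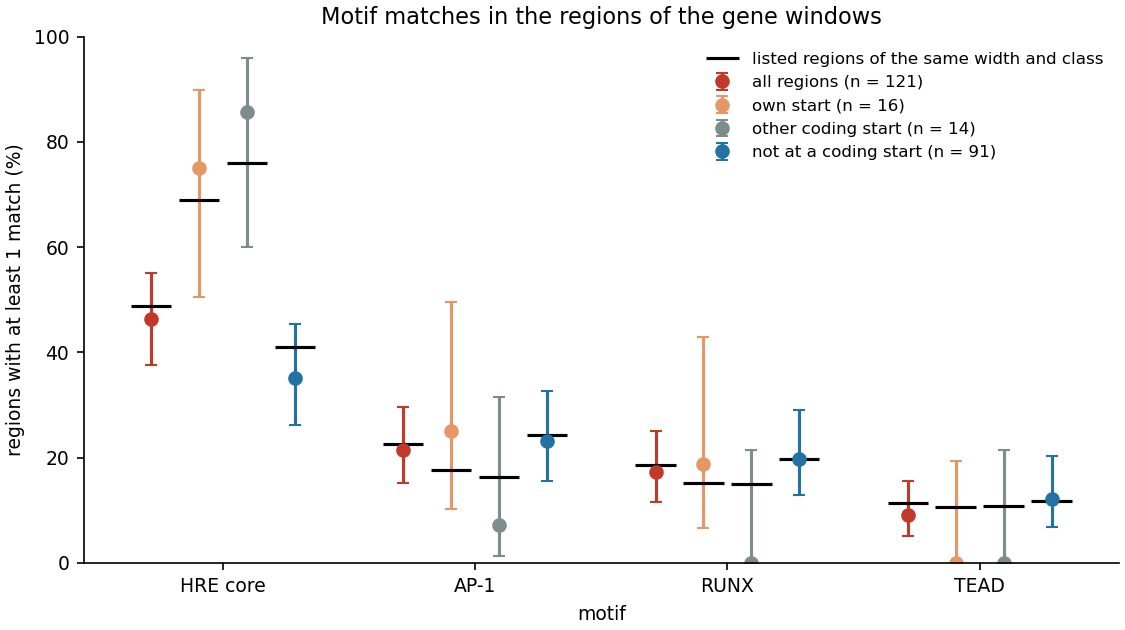
Share of regions with at least 1 match (y axis, %) for 4 motifs, with 95% Wilson intervals, for all 121 regions and for those at own starts, at other coding starts and not at a coding start; black bars give listed regions of the same width and class. For all 121 regions, the 4 shares are 46.3%, 21.5%, 17.4% and 9.09%, and each black bar falls inside its interval.

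Around these 10 genes, the rest of the pathway was covered in part. Of 18 receptors, co-receptors and relatives, 12 had a region within 1000 bp of an own start, with a median level of 3.48, beside 64.6% of all coding genes with a median of 5.04. Of the 17 that were not CpG-rich 11 had one, beside 47.5% of that class with a median of 4.35. The neuropilins, co-receptors of VEGF, had 6.68 at Nrp1 (2806 bp) and 5.69 at Nrp2 (1040 bp), the 81.8th and 85.2th percentiles at their widths, and Angptl2 had 6.41 (79.3). The receptor of VEGF-C, Flt4, had 1.15 (12.1). The Tie receptors of the angiopoietins, Tek and Tie1, had none listed. Of the adrenomedullin receptor parts, Calcrl had 3.01, Ramp2 3.57 and Ramp1 2.57, and Ramp3 none. Lpl, the lipase that Angptl4 inhibits, had 5.67 in a region of 3203 bp (14.3), whereas Gpihbp1, its endothelial anchor, had none.

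Among 15 other angiogenic ligands, 14 had an own-start region, with a median level of 4.97, and Pdgfb was the exception. Of these 15, 9 were CpG-rich, a class with such a region in 91.8% of coding genes, and 5 of the other 6 had one, beside 47.5%. Levels ranged from 2.06 at Esm1 and 3.59 at Dll4 through 4.04 at Hgf, 4.56 at Fgf2 and 5.38 at Cxcl12 to 6.03 at Pdgfa and 6.54 at Ang. All 10 inhibitors of angiogenesis had one, with a median of 3.82, from 1.49 at Sema3e to 6.04 at the thrombospondin Thbs1, and 8 of them were not CpG-rich. Median count percentiles were 63.2 for the partners, 67.3 for the ligands and 80.9 for the inhibitors. At equal width, the start regions of the 3 lists had median percentiles of 32.0, 45.8 and 24.8.

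Markers were compared with the labelled cell types in the same way, beside the shares of 91.8% for CpG-rich and 47.5% for other coding genes. All 10 mesenchymal and osteoblast markers had an own-start region, 8 of them without a CpG-rich start. Their median was 4.99, with a range from 2.33 at Alpl through 3.74 at Bglap, 4.06 at Sp7 and 5.05 at Runx2 to 6.14 at Pdgfra. Of 12 endothelial markers 7 had one, with a median of 2.89 and a range from 1.69 to 4.06. This included 6 of the 11 that were not CpG-rich, a share near that of their class. Cdh5, Tie1, Tek, Emcn and Robo4 had none. For haematopoietic cells it was 2 of 6, none of them CpG-rich. Of 6 osteocyte markers, Dmp1 (4.41) and Fgf23 (2.89) had one, and Sost, Phex, Mepe and Pdpn none, all without a CpG-rich start, in a list that pools osteocytes with undifferentiated cells. At equal width, the start regions had a median percentile of 52.4 for the mesenchymal and osteoblast markers and 38.3 for the endothelial ones, whose regions were 358 to 905 bp wide. The median was also 52.4 for the 2 haematopoietic start regions and 27.0 for the 2 osteocyte ones. This value therefore did not set the labelled cell types apart from the others.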

How the data were processed

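ATAC-seq was performed by the authors on MPC2 cells in 4 groups. Per the labels and the methods, reads were trimmed with Trim Galore, aligned to mm10 with Bowtie2, deduplicated with Picard (version 2.17.8) and used for peak calling with MACS2 (version 2.2.7.1). The authors then merged the peaks, counted cuts per region with pyDNase and applied TMM normalisation in edgeR (version 3.24.3). Versions are from the submitters' processing notes. Whether reads were shifted for the transposase offset is not given in the sources used here. Merging makes regions wider. One library removed by the authors was not analysed here.

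The deposited value of each region is on a log2 scale and was read as the average log2 CPM, because 460 values were below 0 and the values, taken as exponents of 2, added up to 1012761. That unit is inferred. The row order, which follows a comparison of the authors, was not used. Start positions were converted to 1-based, and 0 regions ran past a chromosome end of GRCm38. Because the list has no value per sample, no test between groups could be run, the depth and its precision are unknown, and 1 pooled column was used.

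Percentiles, motif counts and Wilson intervals were computed in Python 3.11.15 with numpy 2.4.6, pandas 2.3.3, scipy 1.17.1 and pysam 0.24.0, and figures with matplotlib 3.10.9. The functions were tested on simulated data. Overlapping motif matches counted as 1 site. Ctgf and Cyr61 were matched as Ccn2 and Ccn1 through RefSeq synonyms. The genes and lists were chosen with earlier results of these data known. Named were all 10 genes, every region within 1000 bp of an own start, and the 2 highest other regions of each window. Regions named for their HRE cores, or for standing apart at their width, beyond that rule were chosen after their values were seen. Alternatives changed the window, width, level, class of similar genes and motif.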

Additional observations from a re-analysis of the deposited data

How the results depend on the processing

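No paired analysis was possible because 1 value stands for all cultures together, and for the same reason no culture could be left out in turn. The 121 regions became 58 with gene bodies and 1 kb upstream only, 60 with regions at least 500 bp wide and 71 with a level of at least 2. They stayed between 99 and 152 under the other 5 alternatives. The number of genes with an own-start region was between 8 and 10 under its 5 alternatives. The 10 was reached at 2500 bp, where Adm gained the regions 1945 bp and 2416 bp from its starts.

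The share of regions with an HRE core was 24.8% for ACGTG alone, 17.4% for ACGTGC or GCGTGC, 22.3% in the central 200 bp and 68.3% in regions at least 500 bp wide, beside 27.1%, 18.6%, 24.2% and 66.3% of the whole list. The AP-1 share was 9.09% in the central 200 bp and 31.7% in regions at least 500 bp wide, beside 12.1% and 28.1% of the list.

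The median count percentile of 83.4 was 85.1 with lengths within 10%, 86.6 with 20 kb upstream, 81.4 without starts of other coding genes, 78.6 with regions at least 500 bp wide, 76.3 with gene bodies and 1 kb upstream, and 70.3 by summed CPM. The counts were 7 genes above and 3 below the median of similar genes under each of the 8 alternatives, but these were not always the same genes: with gene bodies and 1 kb upstream, Adm went from 63.7 to 24.6 and Vegfc from 34.4 to 52.6, whereas with 20 kb upstream Adm went to 89.7. Vegfb went from 86.8 to 53.5 without its neighbours' starts. Causes of these shifts were not tested beyond what each setting leaves out by construction. One list with no depth or replicate sets the limit throughout: a region missing from the copy used here is not shown to be closed or unmeasured, which bears on the 9 of 10 genes with a start region.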
